A study of Mus musculus with 34 samples.

Results

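The *HoxD* cluster of the mouse lies on chromosome 2 between regulatory landscapes on its centromeric and telomeric sides, each folded into a topologically associating domain (TAD). The genes described here are the 8 protein-coding genes chosen as neighbours of the cluster on these sides. On the centromeric side these are *Chn1*, *Atf2*, *Lnpk* and *Evx2*, and on the telomeric side *Mtx2*, *Hnrnpa3*, *Nfe2l2* and *Agps*. They were taken by symbol from the deposited expression table, which lists 22040 genes, and all 8 were found. The rule used names and sides, not expression values, but the genes were chosen with earlier results of these data known. RNA of E11.5 limb buds was compared between 3 WT libraries (genotype *Hnrnpk* WT in the labels) and 3 CKO libraries. In CKO embryos, *Prrx1-Cre* deletes the floxed exons of both *Hnrnpk* alleles in limb bud mesenchyme, while the Cre is not active in the apical ectodermal ridge, and blood, vessels and nerves of the bud are not its target. The methods describe the libraries as biological replicates but give neither the number of embryos behind a library nor which limbs were used. The comparison asked whether the mRNA levels of the genes around *HoxD* differed between CKO and WT limb buds.

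In limb development, enhancers in the centromeric landscape activate the posterior *Hoxd* genes in the future digits, and *Evx2* and *Lnpk*, which sit next to *Hoxd13*, are known to respond to the same enhancers. Enhancers in the telomeric landscape act on the more anterior *Hoxd* genes in the proximal limb. Many other genes along these landscapes are broadly expressed and serve functions unrelated to patterning. HnRNPK is an RNA- and DNA-binding protein with a preference for runs of cytosine. No TAD calls were used here, so which of the 8 genes lie inside a domain was not determined, and they are placed by distance alone.

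On GRCm38, the *HoxD* genes span chr2:74668310-74765142. *Evx2* (chr2:74652991-74659557) ended 8.75 kb and *Lnpk* (chr2:74520291-74579435) 88.9 kb from the cluster. *Atf2* (chr2:73816509-73892639) and *Chn1* (chr2:73610660-73775346) lay 776 kb and 893 kb away on the same side. On the telomeric side, *Mtx2* (chr2:74825803-74878431) was the nearest at 60.7 kb. *Hnrnpa3* (chr2:75659261-75669407), *Nfe2l2* (chr2:75675513-75704641) and *Agps* (chr2:75832177-75931350) lay 894 kb, 910 kb and 1067 kb away.

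RefSeq gives 9 promoters (250 bases before to 50 bases after the transcription start, GRCm38.p6) for the 8 genes, with a second start for *Chn1*. The promoters of 4 genes are shown, chosen by place or by the values below. *Lnpk* and *Evx2* are the neighbours of *Hoxd13*. The CKO values of *Atf2* all lay above the WT values, and 14.5% of all genes tested had groups without overlap, upward or downward. *Nfe2l2* was the only one of the 8 genes called under any alternative. That was in replicates 2 and 3 alone, where 15.1% of all genes were called. Whether these promoters bear on the values was not tested. All 4 genes are on the minus strand, and each promoter is written 5′ to 3′ on that strand. Capitals mark CCCCC, the kind of C run bound by hnRNPK, and TGACG, the core of the cAMP response element bound by ATF2 and related factors, each on either strand.
Atf2, chr2:73892590-73892889: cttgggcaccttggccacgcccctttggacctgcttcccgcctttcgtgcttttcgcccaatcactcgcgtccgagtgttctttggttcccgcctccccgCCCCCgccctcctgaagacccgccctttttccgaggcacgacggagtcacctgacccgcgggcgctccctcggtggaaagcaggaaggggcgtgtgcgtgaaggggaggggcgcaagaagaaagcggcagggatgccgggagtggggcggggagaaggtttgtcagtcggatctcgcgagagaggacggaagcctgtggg
Lnpk, chr2:74578899-74579198: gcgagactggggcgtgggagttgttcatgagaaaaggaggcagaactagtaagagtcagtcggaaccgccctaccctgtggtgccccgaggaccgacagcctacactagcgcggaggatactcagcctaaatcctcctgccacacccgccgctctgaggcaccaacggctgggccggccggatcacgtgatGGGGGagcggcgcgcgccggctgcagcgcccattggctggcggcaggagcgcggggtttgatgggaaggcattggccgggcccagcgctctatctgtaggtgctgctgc
Evx2, chr2:74659508-74659807: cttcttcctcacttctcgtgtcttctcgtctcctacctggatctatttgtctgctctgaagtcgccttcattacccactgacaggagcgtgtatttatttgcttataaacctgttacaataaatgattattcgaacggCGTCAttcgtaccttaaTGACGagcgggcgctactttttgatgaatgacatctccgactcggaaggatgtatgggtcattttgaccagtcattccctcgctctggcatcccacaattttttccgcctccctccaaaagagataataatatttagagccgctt
Nfe2l2, chr2:75704614-75704913: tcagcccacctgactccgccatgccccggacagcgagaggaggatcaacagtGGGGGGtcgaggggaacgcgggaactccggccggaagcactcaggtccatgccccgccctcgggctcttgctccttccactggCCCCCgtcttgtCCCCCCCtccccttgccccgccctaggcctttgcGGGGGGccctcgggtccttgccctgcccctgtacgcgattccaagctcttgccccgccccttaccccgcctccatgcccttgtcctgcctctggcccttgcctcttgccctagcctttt
The *Evx2* promoter differed in base composition from the other printed promoters, with 44.3% G or C against 65.7% for *Lnpk*, 66.0% for *Atf2* and 68.7% for *Nfe2l2*. CCCCC was found on 1 or both strands in promoters of 5 of the 8 genes and not in those of *Evx2*, *Mtx2* and *Agps*. It occurs in 51% of the 32851 RefSeq mouse promoters of this length in the table used. *Nfe2l2* had 2 separate C runs on each strand, whereas *Atf2*, *Lnpk* and *Hnrnpa3* had 1 each. *Chn1* had 2 at its first start, both on the strand opposite the gene. At its second start it had 2 on the strand of the gene and 1 on the opposite strand. The number of runs per promoter was not counted over all promoters. TGACG was found in the promoters of *Evx2* and *Hnrnpa3*, against 20.8% of all promoters. TGACNNNGC, the core of the antioxidant response element bound by NRF2, was found in those of *Mtx2*, *Hnrnpa3* and *Nfe2l2*, against 12.4%. It shares its first 4 letters with TGACG, so that 1 stretch can match both. These matches describe letters in a window and not binding.

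The values are FPKM, the fragments on a gene scaled to exon length and to a size factor per library. That factor was not simply the read total, since the reads on listed genes came to 94.7% to 96.8% of it in the WT libraries and CKO replicate 1, but to 110.7% in CKO replicate 2 and 103.3% in CKO replicate 3. Between 17140869 and 24624434 reads per library fell on the listed genes, and the 8 genes had 141 to 5191 reads per library. *Hnrnpk*, the check of the labels, had 193, 195 and 185 FPKM in the WT and 127, 142 and 135 FPKM in the CKO libraries. Here and below, the values of a group are given in the order of replicates 1, 2 and 3. The CKO values lay below all WT values, at 0.706-fold of the WT level. Its adjusted *p* was 0.334, and 0.0575 with the replicate number as a block. Replicate 1 of both groups stood apart from replicates 2 and 3 along the first principal component, which held 52.6% of the variance. Globin genes made up 11.7% to 13.7% of summed FPKM in both replicates 1 and 19.5% to 32.4% in the other libraries. Summed markers of limb mesenchyme were 400 to 467 FPKM in WT and 367 to 403 FPKM in CKO libraries, and all 8 of these markers were detected. Summed neural markers were 12.8 to 13.6 FPKM in WT and 10.4 FPKM in each CKO library. The other marker lists overlapped between the groups, with summed FPKM in WT and CKO libraries of 3.28 to 7.94 and 6.56 to 8.29 for Schwann precursors, 13.9 to 29.0 and 25.2 to 32.2 for muscle precursors, 37.2 to 72.2 and 42.1 to 73.8 for ectoderm, 20.9 to 29.9 and 14.6 to 24.2 for endothelium, and 15.7 to 23.7 and 17.1 to 29.4 for macrophages. The 10 erythroid markers summed to 35856 to 62095 FPKM in WT and 29302 to 138790 FPKM in CKO libraries, with CKO replicate 1 the lowest. Their median log2 fold change was 0.42, CKO minus WT, beside 0.47 for muscle precursors and -0.31 for endothelium. No gene of any marker list was called in limma with or without the block. In bulk tissue, fewer cells of a type and less RNA per cell cannot be told apart.

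None of the 8 genes differed between CKO and WT limb buds at an adjusted *p* value under 0.05 in limma, a linear model fitted across all 12305 genes whose mean reached 0.5 FPKM. In all, 0.065% of the genes tested were called. At an unadjusted *p* under 0.05, 0 of the 8 genes were past the threshold, against 8.31% of all genes tested. With the replicate number as a block, 2.81% of the genes tested were called and again 0 of the 8, in the same limma fit. At an unadjusted *p* under 0.05, the block fit gave 1 of the 8 genes, *Atf2*, against 18.4% of all genes tested. limma voom on recovered reads called 0 of the 8, with and without the block. The 3 CKO values lay all above or all below the 3 WT values for 2 of the 8 genes, *Atf2* upward and *Chn1* downward, and for 14.5% of all genes tested. The median log2 fold change, CKO minus WT, was 0.12 over the 8 genes, 0.27 over the 4 centromeric genes and -0.02 over the 4 telomeric genes, against 0.0048 over all genes tested. Leaving out WT replicate 1 moved the median over the 8 genes to -0.07, and leaving out CKO replicate 1 moved it to 0.22. Of the libraries left out 1 at a time, WT replicate 1 and CKO replicate 1 narrowed the gap between the sides most. Without WT replicate 1 the medians were 0.05 on the centromeric and -0.07 on the telomeric side. Of the centromeric genes, only *Evx2* changed sign there, to -0.12, while *Atf2* was at 0.33 and *Lnpk* at 0.19. Without CKO replicate 1 the medians were 0.22 and 0.09, and in replicates 2 and 3 alone they were 0.05 and 0.06. The telomeric median was also above 0 without WT replicate 2 (0.02) or WT replicate 3 (0.02). The largest difference was that of *Evx2* at 0.42 (95% interval -0.54 to 1.38). The lowest bound among the other 7 genes was -0.49 (*Mtx2*) and the highest 0.59 (*Lnpk*).

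**Figure D1:**
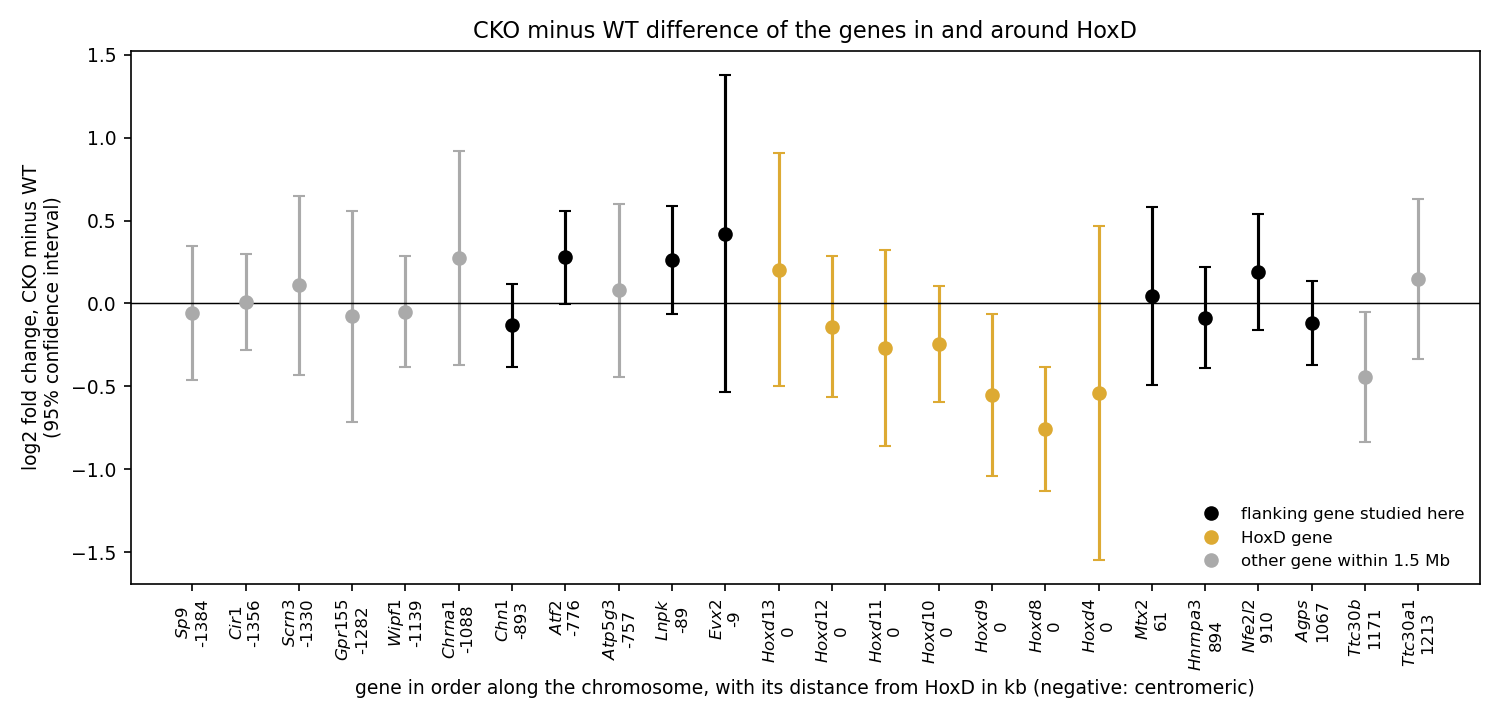
The log2 fold change, CKO minus WT, of the 8 flanking genes (black), the 7 *HoxD* genes tested (yellow) and the 9 other genes tested within 1.5 Mb (grey) is plotted in chromosomal order, with the distance from *HoxD* in kb under each name and bars giving 95% confidence intervals (3 libraries per group). The intervals of all 8 flanking genes include 0, and *Evx2* has the widest of them, from -0.54 to 1.38.

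The level of the 8 genes in WT limb buds ranged from 40.2 ± 2.80 FPKM for *Hnrnpa3* to 4.60 ± 2.44 FPKM for *Evx2* (mean ± SD, n = 3). *Mtx2* was second at 17.4 ± 2.41 FPKM, below all *Hnrnpa3* values. *Atf2* (11.6 ± 0.736), *Agps* (11.5 ± 0.645), *Nfe2l2* (10.9 ± 1.28) and *Chn1* (10.2 ± 0.650 FPKM) followed, each overlapping the next in range. *Lnpk* (5.80 ± 0.856 FPKM) lay below all of these and overlapped *Evx2*. In CKO limb buds the order was the same except that *Nfe2l2* (12.4 ± 1.90 FPKM) came before *Agps* (10.5 ± 0.431 FPKM), and these genes overlapped. In both groups, *Hnrnpa3* was separate at the top and *Lnpk* and *Evx2* lay at the bottom, and in CKO limb buds the ranges of *Lnpk* and *Evx2* did not overlap.

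**Figure D2:**
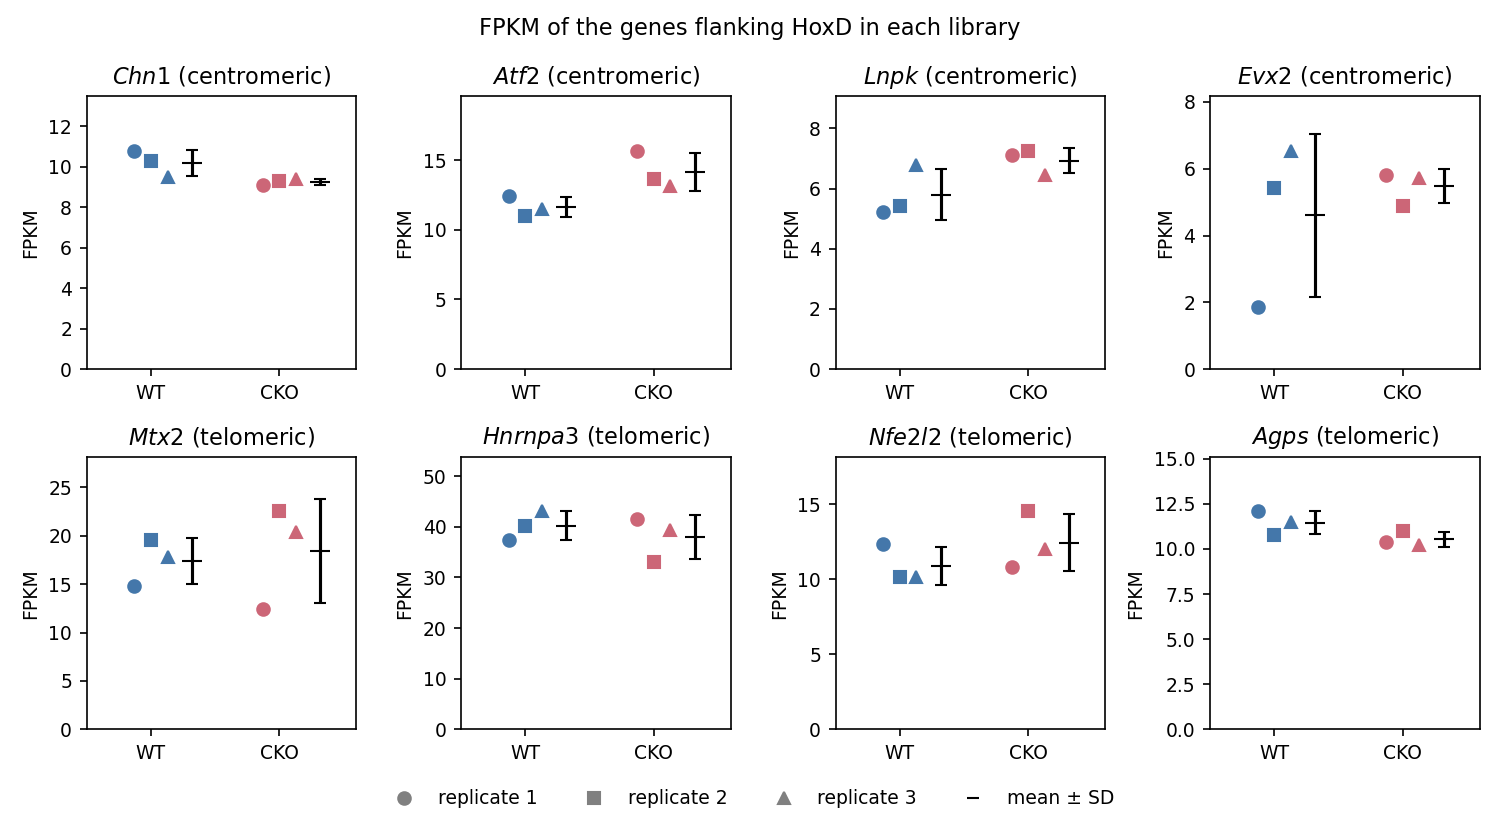
FPKM of each flanking gene is plotted for the 3 WT (blue) and 3 CKO (red) libraries, with the replicate number as the symbol and the mean ± SD beside the points on axes that start at 0. *Atf2* and *Chn1* show groups that do not overlap, and WT replicate 1 stands low for *Evx2* at 1.87 FPKM.

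*Evx2* encodes a homeodomain transcription factor and is expressed together with the posterior *Hoxd* genes in the distal limb bud. Its FPKM were 1.87, 5.41 and 6.53 in the WT and 5.81, 4.90 and 5.73 in the CKO libraries. WT replicate 1 was low, with 141 reads against 393 to 597 in the other libraries, and the CKO values lay within the range of the WT values. The log2 fold change was 0.42 ± 0.41 (SE) with an adjusted *p* of 0.855 in limma, and it turned to -0.12 without WT replicate 1 and to -0.16 in replicates 2 and 3 alone. The block fit gave an adjusted *p* of 0.410. The coefficient of variation was 52.9% in WT and 9.25% in CKO libraries, the largest spread in WT among the 8 genes.

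The same library was low for *Hoxd13*, the neighbour of *Evx2*, which had 54.7, 115 and 123 FPKM in the WT and 92.1, 107 and 120 FPKM in the CKO libraries. *Evx2* came to 0.0341 to 0.0532 of the *Hoxd13* level in WT and 0.0459 to 0.0631 in CKO libraries, and these ranges overlap. The difference of *Hoxd13* was 0.20 on the log2 scale (adjusted *p* = 0.904 in limma, 0.526 with the block). The 7 *HoxD* genes tested had a median log2 fold change of -0.27, and 0 of them were called without the block. With the block, *Hoxd8* (-0.76, adjusted *p* = 0.00497) and *Hoxd9* (-0.55, adjusted *p* = 0.0278) were called as lower in CKO. *Hoxd8* had 6.84 to 7.99 FPKM in WT and 3.64 to 5.32 FPKM in CKO libraries, and *Hoxd9* had 21.3 to 30.5 and 13.5 to 22.2 FPKM.

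*Lnpk* encodes lunapark, a membrane protein that stabilises junctions of endoplasmic reticulum tubules. Its FPKM were 5.21, 5.404 and 6.78 in the WT and 7.10, 7.25 and 6.45 in the CKO libraries. The only WT value above a CKO value was that of WT replicate 3, which lay above CKO replicate 3 and below the other CKO values. CKO minus WT on the log2 scale came to 0.26 ± 0.14 (SE) with an adjusted *p* of 0.689 in limma and 0.294 with the block. By replicate number the differences were 0.44, 0.42 and -0.07 on the log2 scale. *Lnpk* came to 0.0470 to 0.0951 of the *Hoxd13* level in WT and 0.0538 to 0.0771 in CKO libraries. Over the 6 libraries, *Lnpk* and *Evx2* had a Pearson *r* of 0.66 in log2(FPKM + 0.1). This describes 6 points, of which WT replicate 1 was the lowest for both genes, at 5.21 FPKM of *Lnpk* and 1.87 FPKM of *Evx2*.

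*Atf2* encodes a basic leucine zipper transcription factor that stress-activated kinases phosphorylate. Its FPKM were 12.4, 11.0 and 11.5 in the WT and 15.7, 13.6 and 13.1 in the CKO libraries. All CKO values were higher than all WT values. The difference was therefore bound to be positive for each replicate number, at 0.33, 0.31 and 0.19 on the log2 scale. The log2 fold change was 0.28 ± 0.12 (SE, 95% interval -0.00063 to 0.56), or 1.21-fold. Its adjusted *p* was 0.600 in limma and 0.173 with the block, so the difference did not pass the threshold. The exact two-sided permutation test of the means gave *p* = 0.1, below which 3 libraries per group cannot go. Groups of this size that do not overlap always give this value, so it adds nothing to the order of the values. Of the genes tested, 22.2% had a larger absolute log2 fold change. *Atf2* shares 167 exon bases with *Gm27421*, a small RNA gene on the same strand.

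*Chn1* encodes α-chimaerin, an activator of GTP hydrolysis by Rac that acts downstream of the EphA4 receptor in growing axons. Its FPKM were 10.8, 10.3 and 9.49 in the WT and 9.10, 9.30 and 9.38 in the CKO libraries. All CKO values were lower than all WT values, but CKO replicate 3 and WT replicate 3 were only 0.02 apart on the log2 scale. The difference amounted to a log2 fold change of -0.13 ± 0.11 (SE) with an adjusted *p* of 0.821 in limma and 0.533 with the block. The exact two-sided permutation test gave *p* = 0.1, as it does whenever groups of this size do not overlap. The summed neural markers were also lower in all CKO libraries, and their part in the *Chn1* values was not tested. *Chn1* shares 533 exon bases with the antisense gene *Chn1os1* and 220 with *Chn1os3*. The kit marks strand, but whether counting used it is not given in the sources used here, and *Chn1* was the only one of the 8 genes whose values did not give whole reads. Its values are therefore less certain than those of the others.

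*Mtx2* encodes metaxin 2, a component of the mitochondrial outer membrane machinery that inserts proteins. Its FPKM were 14.8, 19.6 and 17.8 in the WT and 12.4, 22.5 and 20.3 in the CKO libraries. The values followed the replicate number rather than the genotype, with replicate 1 lowest in both groups and a mean of 13.6 FPKM over both replicates 1 against 20.1 FPKM over the other libraries. In limma, the log2 fold change was 0.05 ± 0.23 (SE) with an adjusted *p* of 0.974 and 0.863 with the block. It was negative when WT replicate 1 (-0.07), CKO replicate 2 (-0.12) or CKO replicate 3 (-0.05) was left out. Rescaling without the globin genes gave -0.06, by a shift that all genes share. The globin share of summed FPKM was 13.7%, 19.5% and 20.6% in WT and 11.7%, 32.4% and 23.5% in CKO replicates 1, 2 and 3. *Mtx2* was highest in the library with the highest globin share and lowest in that with the lowest, and the part of blood RNA in its values was not tested.

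**Figure D3:**
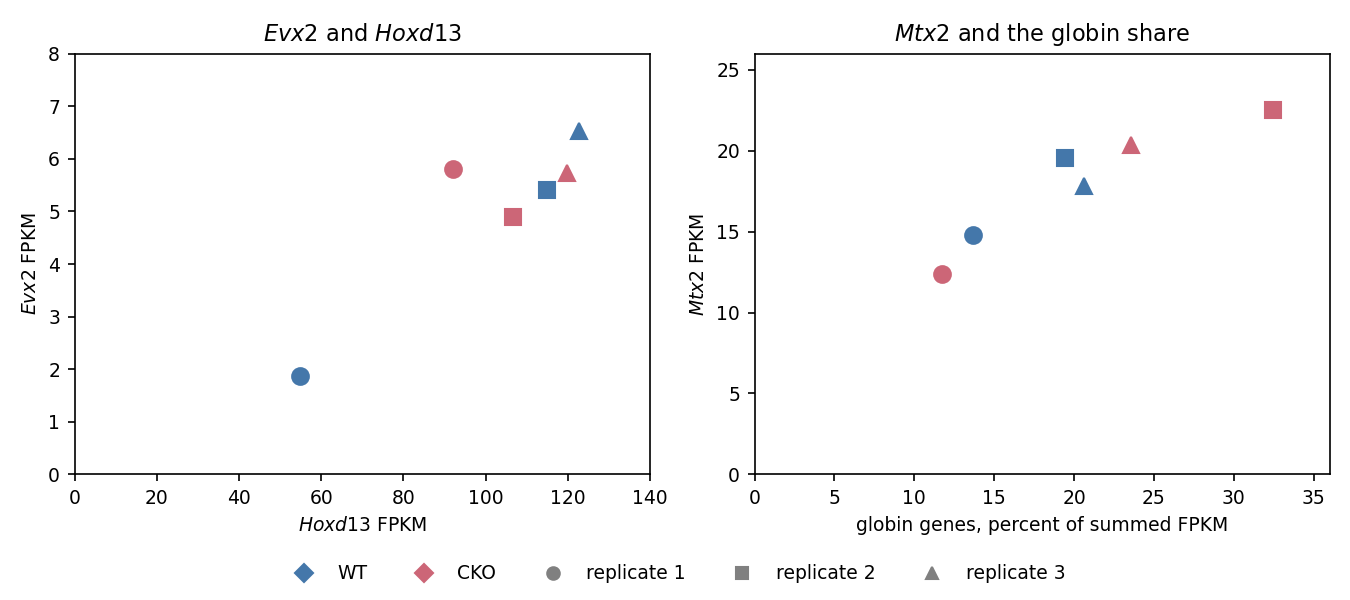
The left panel plots *Evx2* against *Hoxd13*, both in FPKM, and the right panel *Mtx2* in FPKM against the share of globin genes in summed FPKM in percent, with 1 point per library (WT blue, CKO red, symbol by replicate number). WT replicate 1 lies alone at 1.87 FPKM of *Evx2* and 54.7 FPKM of *Hoxd13*, and *Mtx2* runs from 12.4 FPKM at a globin share of 11.7% to 22.5 FPKM at 32.4%.

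*Hnrnpa3* encodes an RNA-binding protein of the hnRNP A/B family. Its FPKM were 37.4, 40.2 and 43.0 in the WT and 41.5, 33.1 and 39.3 in the CKO libraries. The groups overlapped, and CKO replicate 2 was the lowest library. The log2 fold change was -0.09 ± 0.13 (SE) with an adjusted *p* of 0.904 in limma and 0.718 with the block, and it was 0.0083 without CKO replicate 2. Retrocopies of hnRNP A genes are common in mammalian genomes, and how reads matching several places were treated is not given in the sources used here.

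*Nfe2l2* encodes NRF2, the transcription factor that activates antioxidant genes and is held in check by KEAP1. Its FPKM were 12.3, 10.1 and 10.2 in the WT and 10.8, 14.5 and 12.0 in the CKO libraries. CKO replicates 2 and 3 were above WT replicates 2 and 3, whereas CKO replicate 1 was below WT replicate 1. CKO minus WT on the log2 scale came to 0.19 ± 0.15 (SE) with an adjusted *p* of 0.815 in limma and 0.471 with the block. In replicates 2 and 3 alone it was 0.38 with an adjusted *p* of 0.0438 in limma, and *Nfe2l2* was the 1 gene of the 8 called there, while 15.1% of all genes were called in that subset. The value was 0.07 without CKO replicate 2, 0.14 without WT replicate 2 or WT replicate 3, and 0.28 without WT replicate 1 or CKO replicate 1. Whether the difference itself differed between replicate 1 and the others was not tested.

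*Agps* encodes alkylglycerone phosphate synthase, the peroxisomal enzyme that makes the ether bond of plasmalogens. Its FPKM were 12.1, 10.8 and 11.5 in the WT and 10.4, 11.0 and 10.2 in the CKO libraries. The groups overlapped by CKO replicate 2, which lay above WT replicate 2. On the log2 scale the groups differed by -0.12 ± 0.11 (SE) with an adjusted *p* of 0.837 in limma and 0.580 with the block.

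**Figure D4:**
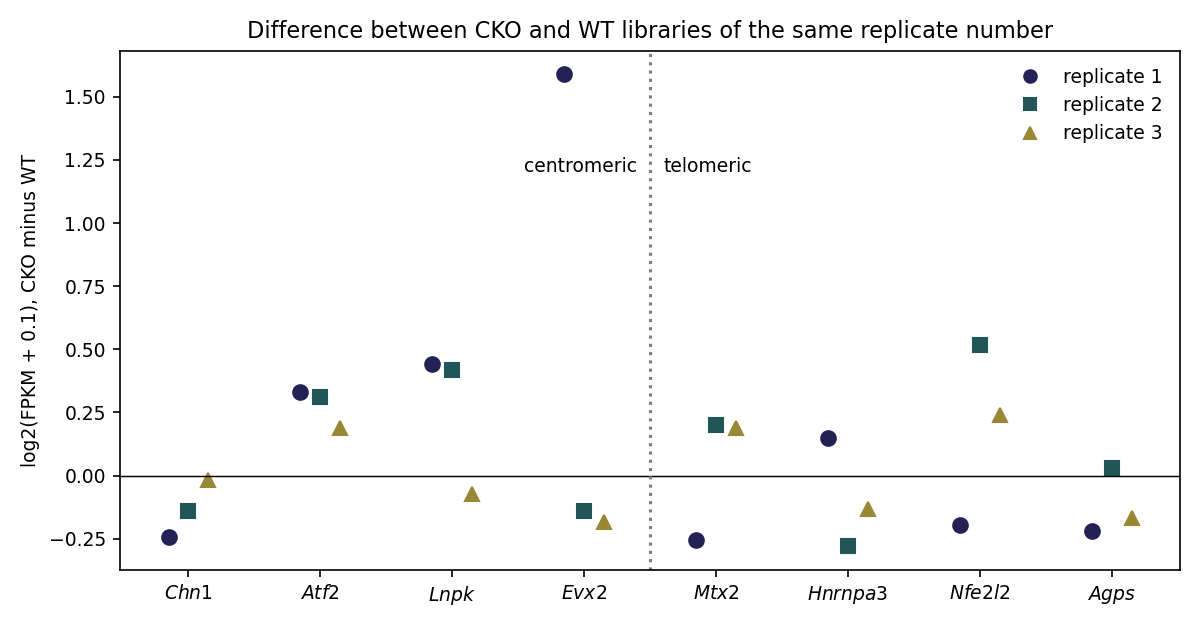
The difference in log2(FPKM + 0.1) between the CKO and the WT library of the same replicate number is plotted for each flanking gene, with 1 symbol per number. *Atf2* is the only gene with 3 positive differences (0.33, 0.31 and 0.19) and *Chn1* the only one with 3 negative differences (-0.24, -0.14 and -0.02). For both genes these signs follow from groups that do not overlap, whatever the pairing.

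The 8 genes did not vary together over the 6 libraries. Pearson's *r* in log2(FPKM + 0.1) ran from -0.96 for *Chn1* with *Lnpk* and -0.94 for *Hnrnpa3* with *Nfe2l2* to 0.67 for *Chn1* with *Agps*. These values describe 6 libraries that share the replicate offset and the genotype. The genes whose pattern was most like that of each member, by Pearson's *r* over the 6 libraries, were *Eef2kmt* (0.98) and *Adam15* (0.98) for *Chn1*, *Ccdc15* (0.99) and *Mief1* (0.99) for *Atf2*, *Tbc1d12* (0.98) and *Apobec3* (0.97) for *Lnpk*, and *Fbxo27* (0.996) and *Serpine3* (0.99) for *Evx2*. On the telomeric side they were *Tiprl* (0.999) and *Smim20* (0.998) for *Mtx2*, *Epb41l2* (0.997) and *Cd276* (0.98) for *Hnrnpa3*, *Uap1l1* (0.99) and *Zfp180* (0.99) for *Nfe2l2*, and *Zfp354a* (0.98) and *Mum1l1* (0.97) for *Agps*. For *Mtx2*, 645 of the genes tested had an *r* of at least 0.95, against 7 to 44 for the other members.

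Of 11 further genes in the table within 1.5 Mb of *HoxD*, 9 were tested and 0 were called in limma with or without the block. Of these 9, 1 had an unadjusted *p* under 0.05 in limma, against 8.31% of all genes tested. The median log2 fold change of the 9 was 0.0072. The 2 largest differences among those with a mean of 1 FPKM or more were in *Ttc30b* and *Ttc30a1*, near-identical genes of ciliary transport beyond *Agps*. *Ttc30b* had 1.99, 2.87 and 2.48 FPKM in WT and 1.74, 1.81 and 1.72 FPKM in CKO libraries, a log2 fold change of -0.44 (adjusted *p* = 0.553 in limma). *Ttc30a1* differed by 0.15 (adjusted *p* = 0.895 in limma), and reads may be split between these copies.

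Of the 12 paralogs of the members, several of which flank other *Hox* clusters, 10 were tested and 0 were called with or without the block (median log2 fold change 0.0050, 0 with an unadjusted *p* under 0.05). *Nfe2*, the erythroid relative of *Nfe2l2*, differed most at 0.51 (adjusted *p* = 0.742 in limma), and its 21.7 FPKM in CKO replicate 2, the library with the highest globin share, were the highest of the 6 libraries. *Evx1*, the counterpart of *Evx2* at *HoxA*, had 4.51, 5.18 and 4.86 FPKM in WT and 6.49, 4.87 and 6.24 FPKM in CKO libraries, a difference of 0.26 (adjusted *p* = 0.710 in limma).

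Genes that work with the members were called in no list, with or without the block. Of 24 targets of NRF2, 22 were tested, 13 with a log2 fold change above 0 and 9 below, with a median of 0.09. Of these 22, 1 had an unadjusted *p* under 0.05 in limma, against 8.31% of all genes tested. *Gstm1*, a glutathione transferase, was lower by value at -0.43 (adjusted *p* = 0.566), and *Fth1*, the ferritin heavy chain, differed by 0.37 (adjusted *p* = 0.768 in limma). *Fth1* had 1308 and 1221 FPKM in CKO replicates 2 and 3 and 762 FPKM in CKO replicate 1, against 772 to 859 FPKM in WT. Among the 8 regulators and partners of NRF2 (median 0.03), the small MAF proteins *Maff* and *Mafg* differed most, by 0.28 and 0.23 (adjusted *p* = 0.880 and 0.773 in limma).

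The 12 genes around ATF2 and its kinases had 11 tested members and a median of -0.07, and the largest differences were those of the immediate early genes *Atf3* at 0.35 and *Fos* at -0.29 (adjusted *p* = 0.889 and 0.714 in limma). *Atf3* had 3.86 FPKM in WT replicate 1 and 3.41 FPKM in CKO replicate 1, against 1.15 to 2.20 FPKM in the other libraries, so that it followed the replicate number. The 7 genes of ephrin and chimaerin signalling had a median of -0.14. Their largest differences were in the ligand *Efnb3* (-0.37, adjusted *p* = 0.550), with 25.5 to 26.5 FPKM in WT and 17.1 to 23.4 FPKM in CKO libraries, and the kinase *Prkcd* (-0.29, adjusted *p* = 0.680 in limma).

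Of the 11 genes of the mitochondrial outer membrane and the MICOS complex, 8 had a log2 fold change above 0, with a median of 0.05. The receptors *Tomm70a* and *Tomm20* of the protein import machinery both differed by 0.26 (adjusted *p* = 0.685 and 0.564 in limma), and the 3 *Tomm20* values of CKO (27.3 to 29.6 FPKM) lay above those of WT (23.2 to 24.1 FPKM). The 12 genes that shape the endoplasmic reticulum had a median of -0.05, with *Ckap4* at -0.20 and *Reep5* at -0.19 (adjusted *p* = 0.792 and 0.843 in limma). The 9 genes of ether lipid synthesis had a median of 0.0071, and among those with a mean of 1 FPKM or more the largest differences were in *Agpat3* at -0.13 and *Far1* at 0.11 (adjusted *p* = 0.837 and 0.884 in limma). *Pex7*, the receptor that imports AGPS into peroxisomes, lies under that level and is named after its values were seen. It had 0.918, 1.02 and 0.967 FPKM in WT and 0.398, 0.721 and 0.669 FPKM in CKO libraries, a log2 fold change of -0.65 (adjusted *p* = 0.550 in limma, 0.153 with the block). At an unadjusted *p* under 0.05 there was 1 gene each in the ephrin, mitochondrial and ether lipid lists. There were 0 in the lists of NRF2 partners, ATF2 and endoplasmic reticulum genes, against 8.31% of all genes tested.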

How the data were processed

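RNA-seq of E11.5 limb buds from 3 WT and 3 CKO biological replicates was used. The chromatin samples of the series were not analysed here. The libraries were made with a stranded mRNA kit, and the authors deposited their FPKM for 22040 protein-coding genes as 1 table. The submitters' processing notes name cutadapt 2.5, HISAT2 2.1.0, featureCounts 1.6.3 and mm10 for the series without saying which step made these values. Of the identifiers, 99.5% matched GENCODE vM21 on GRCm38, and for 92.6% of genes FPKM times exon length gave whole reads in all libraries within 0.1 reads. Reads on listed genes numbered 17140869 to 24624434, and the lowest member value rested on 141 reads.

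No further scaling was applied. The 12305 genes whose mean reached 0.5 FPKM were compared as log2(FPKM + 0.1) with limma 3.58.1 in R 4.3.3 (lmFit and eBayes with trend), with Benjamini-Hochberg adjustment over all genes tested and an adjusted *p* threshold of 0.05. For each member, the means were tested by exact permutation of the 6 libraries (two-sided). The model was tested on simulated data whose libraries varied independently. These data held no replicate 1 offset, so the test cannot show how the model behaves with one. *p* values measure the spread between these libraries. The members and lists were chosen with earlier results of these data known. Lists hold *HoxD* genes, neighbours within 1.5 Mb, paralogs, NRF2 targets and partners, ATF2, ephrin, mitochondrial, endoplasmic reticulum and ether lipid genes, and cell type markers. Genes named are the members, *HoxD* genes beside *Evx2*, list genes past the threshold with or without the block plus the 2 with the largest absolute log2 fold change at a mean of at least 1 FPKM (*Pex7* was added after its values were seen), the 2 genes most like each member, and *Hnrnpk*.

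The groups share replicate numbers. The deviations of same-numbered libraries from their group means correlated across genes at 0.64, 0.44 and 0.27 for numbers 1, 2 and 3. Since all exceed 0.1, same-numbered libraries were treated as pairs in the fits with the block and in the differences by replicate number. The deviations of a group sum to 0, so an offset of replicate 1 alone also raises the values for numbers 2 and 3. The 0.1 criterion therefore cannot test the pairing of numbers 2 and 3. The main fit and the permutation test did not use the pairs. The labels do not say what a number stands for. Across numbers, WT replicate 2 correlated with CKO replicate 3 at 0.49 and WT replicate 3 with CKO replicate 2 at 0.31, against 0.44 and 0.27 for the same-numbered pairs of these replicates, so only replicate 1 was set apart by its number. Alternatives were pseudocounts of 0.5 and 1, other filters, median-ratio scaling, quantile normalization, rescaling without the 8 globin genes, eBayes without trend, the replicate block, limma voom on recovered reads with and without the block, each library left out, and replicates 2 and 3 alone.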

Additional observations from a re-analysis of the deposited data

How the results depend on the processing

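Of 144 values of the 8 members over 18 alternatives each, 136 kept their direction and their side of the threshold, 7 reversed and 1 (*Nfe2l2*) passed the threshold. *Evx2* reversed without WT replicate 1 (-0.12) and in replicates 2 and 3 alone (-0.16). *Mtx2* reversed without WT replicate 1 (-0.065), CKO replicate 2 (-0.12) and CKO replicate 3 (-0.048), and *Hnrnpa3* reversed without CKO replicate 2 (0.0083). The cause was not tested. The seventh, *Mtx2* when rescaled without globin genes (-0.061), follows from the construction of that alternative, which shifts all genes alike and moved the median of all genes from 0.0048 to -0.0998. In replicates 2 and 3 alone, 1 member was called (*Nfe2l2*, 0.38). The number of genes called, 8 as reported (7 higher and 1 lower in CKO), was 14 with quantile normalization, 4 (all higher) when rescaled without globin genes, 1863 in replicates 2 and 3 alone, and 1 to 23 with 1 library left out (23 without CKO replicate 1, 7 without WT replicate 1, 3 without WT replicate 2, and 1 without each of WT replicate 3, CKO replicate 2 and CKO replicate 3). With the replicate block 346 genes were called (139 higher and 207 lower) and, with voom and the block, 651. In the lists the calls numbered 2 with the replicate block, 5 with voom and the block, and 21 in replicates 2 and 3 alone. Of all genes tested, 2.81% were called with the replicate block and 15.1% in replicates 2 and 3 alone. The block changed no call of a member, and of the pairs it rests on only replicate 1 was set apart by its number. Leave-one-out fold changes ran from -0.18 for *Chn1* to 0.76 for *Evx2*, both without WT replicate 3. Without CKO replicate 1, *Mtx2* was at 0.31 and *Hnrnpa3* at -0.15. The members' median was -0.073 to 0.223 with 1 library left out and 0.010 when rescaled without globin genes, by the same shift. By side, leaving out 1 library gave 0.05 (without WT replicate 1) to 0.32 on the centromeric and -0.07 to 0.09 (without CKO replicate 1) on the telomeric side. *Nfe2l2* ranged from 0.07 (without CKO replicate 2) to 0.28. *Evx2* had the fewest reads of the members, with 141 to 597 per library, and the part of depth in its changes was not tested.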
